A study of Mus musculus with 9 samples.

Results

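The genes described here encode the epidermal growth factor (EGF) receptor family and its ligands: the receptors Egfr, Erbb2 and Erbb3, the ligands Tgfa, Hbegf, Areg, Ereg and Btc, and Errfi1, an intracellular inhibitor of the receptors. They were taken by gene symbol, from probe sets that the platform annotation pairs with that symbol alone. Of the 9 genes, 8 were read by 20 such probe sets, among 18193 genes and 34945 probe sets in all. No probe set was paired with Areg, so it is not analysed here. For each gene the main probe set was the one with the highest mean over all 9 arrays.

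The study compared liver tumours of a mouse model with normal liver. The 5 tumours were hepatocellular carcinomas (HCC) of mice called triple knockout (TKO), with the genotype RbΔ/Δ; p130Δ/Δ; p107+/-, dissected 4 months after adenovirus carrying Cre recombinase (Ad-Cre) was injected into the spleen. The 4 control livers were adult, wild type and free of tumour. Their labels mention no virus, so genotype, virus and tumour state cannot be told apart, and neither age nor sex is stated. By genotype label the tumours keep 1 intact copy of p107. RNA was amplified in 2 rounds and hybridised to Affymetrix mouse genome arrays, 1 array a sample. Values are log2 expression from RMA, a method that corrects, normalises and summarises array intensities, and 1 unit is a 2-fold difference. The labels do not tie arrays to animals, and the p-values cover only the spread among these arrays, which may be technical.

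EGF family ligands are made as membrane proteins and released by cell-surface proteases. They bind the extracellular part of EGFR, which pairs with itself or with another member of the family and signals through RAS and ERK and through PI3K and AKT. ERBB2 has no known ligand of its own, and ERBB3 binds neuregulins and has little kinase activity. In liver, EGFR is abundant on hepatocytes and is known for its part in regeneration. ERRFI1, also called MIG6, is induced by the pathway and blocks the receptor kinase.

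Of the 8 genes measured, 3 passed an adjusted p of 0.05 (limma with Benjamini-Hochberg adjustment over all genes), 1 higher and 2 lower in the tumours. That is 37.5% of them, and 33.5% of all 18193 genes passed, so the count alone does not set these genes apart. The receptor gene Egfr and the inhibitor gene Errfi1 were lower in the tumours, whereas the ligand gene Hbegf was higher. The median log2 difference was 0.14 over the 8 genes and -0.08 over all genes. The tumour and liver values did not overlap for 2 of the 8 genes, Egfr and Hbegf, and for 29.8% of all genes.

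**Figure D1:**
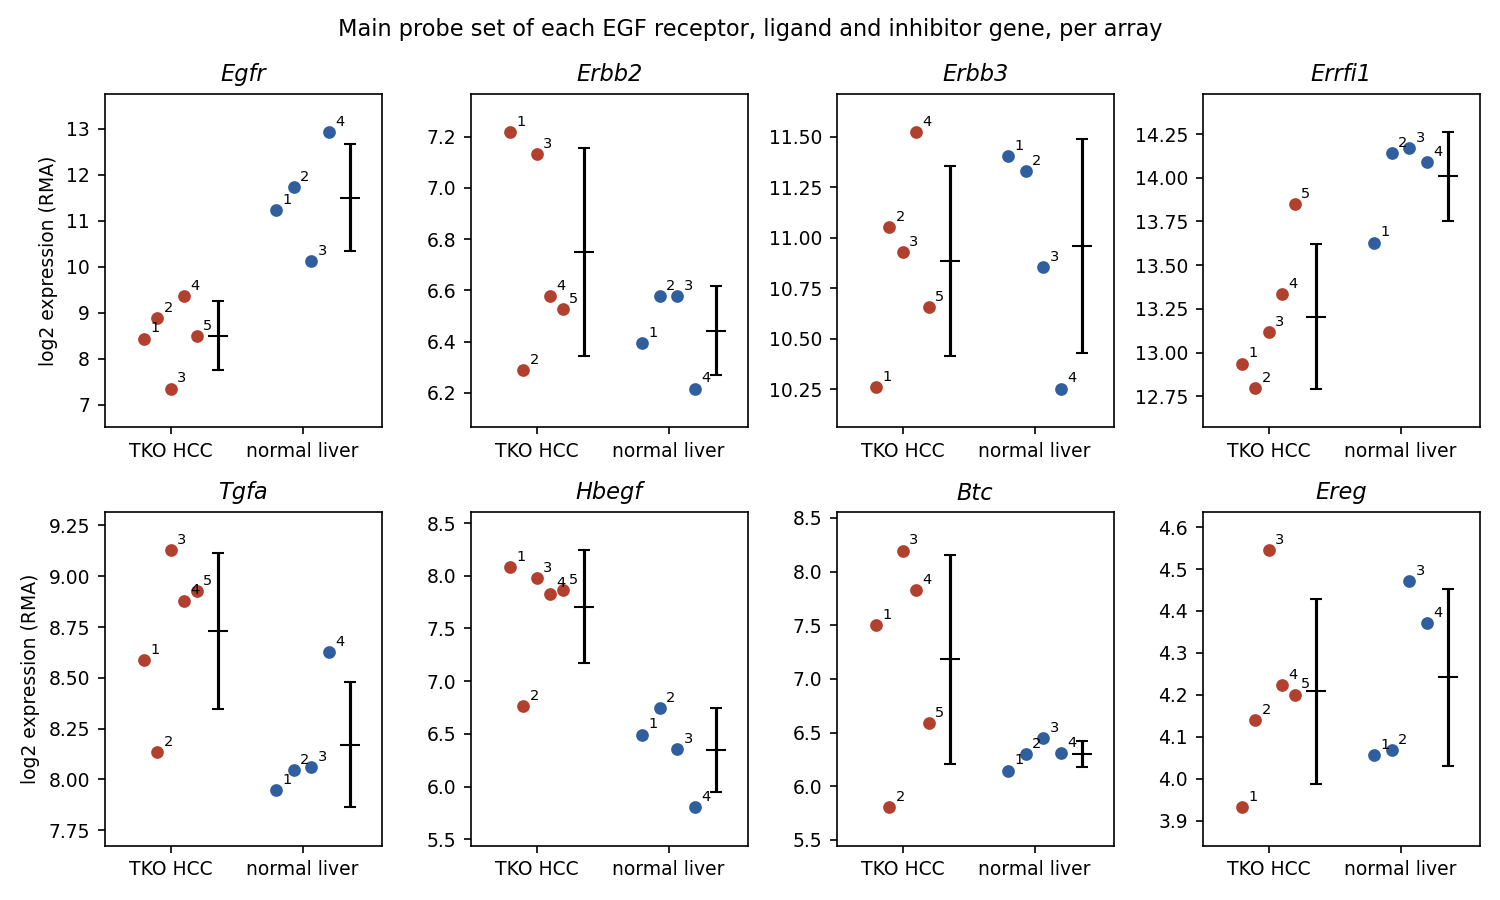
Log2 expression (vertical axes) of the main probe set of 8 genes on each array, TKO HCC in red and normal liver in blue, numbered by replicate, with the mean and SD in black. The vertical axes differ between panels and do not start at 0. Egfr lies lower and Hbegf higher in all 5 tumours than in any of the 4 livers, and the groups overlap in the other 6 panels.

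Some facts of the whole series bear on these values. Each array was placed between the average liver (0) and the average tumour (1), both computed with that array left out. On this scale tumour 2 stood at 0.75 and tumour 4 at 0.84, the other tumours between 1.02 and 1.06, and the livers between -0.01 and 0.10. Of 9 measured hepatocyte markers 1 fell and 0 rose, which is 11.1% past the threshold against 33.5% of all genes. The list averaged between 13.9 and 14.5 per tumour and between 14.6 and 14.7 per liver. Apob fell by 0.61 (adjusted p = 0.000829). Tat read 10.06 to 13.33 in tumours and 13.61 to 14.22 in livers (-1.72, adjusted p = 0.0735), and Cps1 differed by -0.64 (adjusted p = 0.161). Hnf4a (0.20), Apoa1 (0.05), Serpina1c (-0.01), Ttr (-0.11) and Fgb (-0.17) did not pass either. Alb averaged 15.50 in the tumours and 15.42 in the livers, at the top of the scale, where a change can hardly show. Of the targeted genes, Rbl2 (p130) fell by 1.99 (SE 0.30, adjusted p = 0.00126), Rb1 was higher by 1.05 (SE 0.17, adjusted p = 0.0018), and Rbl1 (p107) averaged 4.76 in tumours and 4.94 in livers (adjusted p = 0.619). Whether these probe sets lie in the deleted parts is unknown here, so they do not check the labels. Probe sets for TrpnX, a bacterial sequence used as a blank, read 3.69 to 4.36. As a measure of RNA length, Actb probe sets at the 3' end were set against those at the 5' end, and their log2 difference averaged 0.61 ± 0.08 over tumours (SD, n = 5) and 0.96 ± 0.04 over livers (SD, n = 4) (two-sided exact permutation p = 0.00794, which is the lowest value possible with 5 against 4 arrays, and 0.0159 adjusted over 2 controls). The same for Gapdh gave -0.21 ± 0.03 over tumours (SD, n = 5) and -0.28 ± 0.05 over livers (SD, n = 4) (exact p = 0.0635, and 0.0635 adjusted). The Actb value thus moved with the groups in every comparison here, and its part in the results was not tested. Xist, a transcript of female cells, was low on 3 arrays (tumour 1 at 6.34, tumour 2 at 6.39, liver 4 at 6.66) and 12.68 to 13.55 on the other 6.

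Egfr encodes the receptor for EGF, TGF-alpha, HB-EGF, amphiregulin, epiregulin and betacellulin. Its main probe set, 1435888_at, read 8.44, 8.87, 7.35, 9.37 and 8.49 in tumours 1 to 5 and 11.23, 11.73, 10.12 and 12.93 in livers 1 to 4. Every tumour lay below every liver, and liver 4 stood highest and liver 3 lowest of the livers. The difference was -3.00 log2 units (SE 0.56, 95% interval -4.26 to -1.74, limma adjusted p = 0.00354), or 8.0-fold lower in the tumours. The SD was 0.75 in tumours (n = 5) and 1.17 in livers (n = 4), so the livers did not share a level either. Egfr remained lower and past the threshold in each of the 18 alternative settings, between -3.46 and -1.29. The smallest difference came from averaging all its probe sets, the dim ones included, and without liver 4, the highest, it was -2.52. With the Xist level as a covariate it was -3.08, and -2.63 without the 3 arrays with low Xist.

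All 7 Egfr probe sets were read separately, with p-values adjusted over all 34945 named probe sets, of which 30.6% passed. Lower values in the tumours passed for 6 of the 7. Probe set 1424932_at differed by -2.09 (SE 0.54, adjusted p = 0.0173), 1451530_at by -1.79 (SE 0.47, adjusted p = 0.0194) and 1460420_a_at by -1.35 (SE 0.39, adjusted p = 0.0294). In these 3 and the main one, livers 4, 2, 1 and 3 followed each other in the same order from high to low. The tumours and livers overlapped for 1424932_at, where tumour 4 at 9.60 exceeded liver 3 at 9.25, and for 1460420_a_at, where tumour 2 at 9.62 exceeded liver 3 at 9.47. Probe sets 1432647_at and 1454313_at were dimmer and differed by -0.35 (SE 0.08) and -0.42 (SE 0.07), with no overlap and almost level livers, 6.78 to 6.82 and 6.34 to 6.40. The seventh, 1457563_at, read 4.12 to 4.38 in tumours and 4.14 to 4.44 in livers, about the level of the TrpnX control, and differed by 0.0028 (95% interval -0.20 to 0.21). The Egfr transcripts that each probe set reads were not analysed here.

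**Figure D2:**
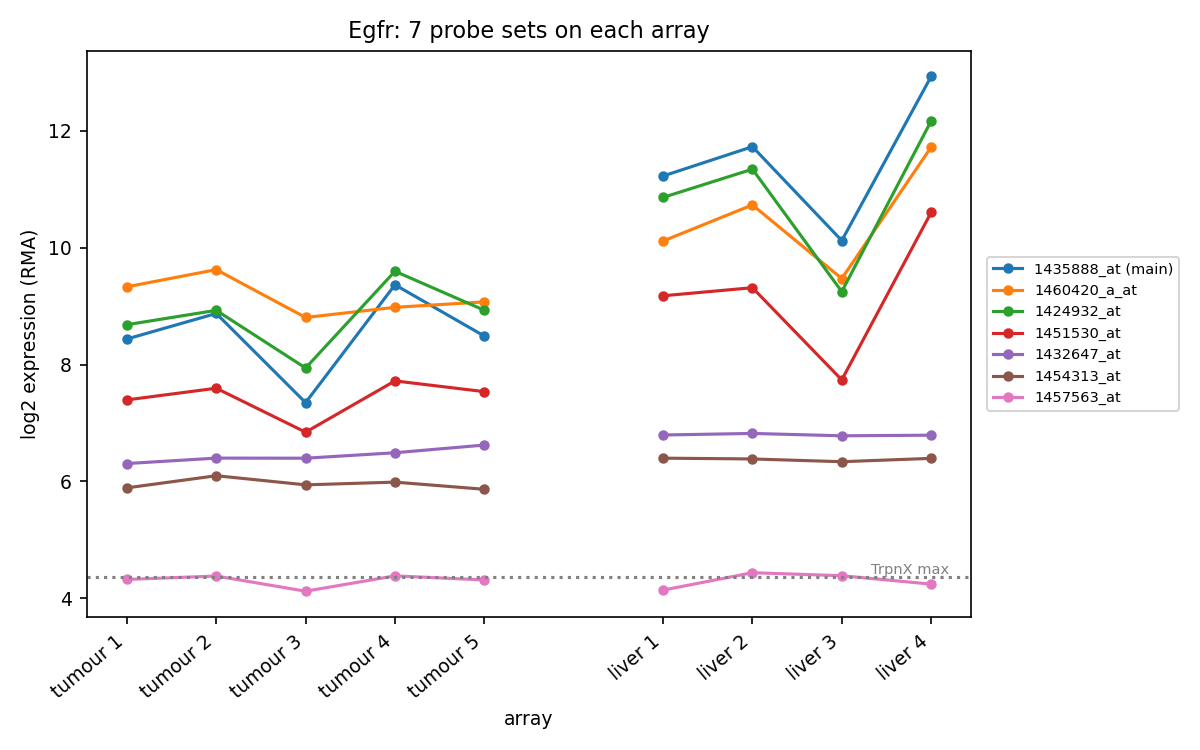
Log2 expression (vertical axis) of the 7 Egfr probe sets on the 5 TKO HCC arrays (left) and the 4 normal liver arrays (right), with the highest TrpnX value as a dotted line. The 4 brighter probe sets move together over the livers, highest in liver 4 and lowest in liver 3, and the dimmest lies at the dotted line on all arrays.

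The promoters of Egfr and Errfi1, the 2 genes that fell, are shown so that their base composition can be compared with that of other genes. Each runs from 250 bases before to 50 after a start listed in RefSeq (GRCm38.p6), 5′ to 3′ on the gene's strand, with capitals marking the GC box, GGGCGG on either strand. Promoters of 5 of the 8 genes were searched: Egfr, Erbb2, Tgfa, Btc and Errfi1. Hbegf was not among them. Errfi1 had a pair of windows, and both are shown: the first is at the start of the annotated gene and the second at a start inside it.

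Egfr, chr11:16751953-16752252, plus strand: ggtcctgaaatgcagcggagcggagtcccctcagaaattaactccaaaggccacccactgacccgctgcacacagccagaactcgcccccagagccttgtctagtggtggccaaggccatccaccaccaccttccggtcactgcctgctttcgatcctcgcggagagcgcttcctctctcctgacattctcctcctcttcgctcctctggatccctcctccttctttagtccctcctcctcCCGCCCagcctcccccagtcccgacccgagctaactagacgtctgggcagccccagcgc

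Errfi1, first window, chr4:150853546-150853845, plus strand: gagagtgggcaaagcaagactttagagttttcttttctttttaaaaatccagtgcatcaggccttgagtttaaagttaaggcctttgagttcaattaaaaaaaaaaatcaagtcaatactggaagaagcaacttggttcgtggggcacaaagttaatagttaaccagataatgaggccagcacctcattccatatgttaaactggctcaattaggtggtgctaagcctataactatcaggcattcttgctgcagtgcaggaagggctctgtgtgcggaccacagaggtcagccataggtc

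Errfi1, second window, chr4:150854820-150855119, plus strand: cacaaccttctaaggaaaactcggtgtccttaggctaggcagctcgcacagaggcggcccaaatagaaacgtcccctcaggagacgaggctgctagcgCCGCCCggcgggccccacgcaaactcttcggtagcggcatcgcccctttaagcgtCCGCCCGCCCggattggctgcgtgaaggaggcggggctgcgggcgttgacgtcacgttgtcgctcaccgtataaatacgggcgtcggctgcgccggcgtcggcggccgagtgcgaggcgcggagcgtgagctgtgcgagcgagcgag

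The Egfr window was 62.3% G and C and held 1 GC box, the first Errfi1 window was 42% G and C and held 0, and the second was 66.7% G and C and held 3. The median over all 32851 promoters of this length was 52.7%, and 35.7% of them held a GC box. The E2F motif, searched as TTTCCCGC, TTTGGCGC, TTTCGCGC and TTTGCCGC on both strands, was found in 0 of the 6 promoters of the 5 genes and in 2.26% of all promoters. The AP-1 motif, TGACTCA or TGAGTCA on both strands, was likewise in 0 of these 6 and in 5.20% of all. These are letters in a window and not sites of binding.

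The other receptor genes did not pass. Erbb2, whose protein is the preferred partner of the other receptors, read 7.22, 6.29, 7.13, 6.58 and 6.53 in tumours and 6.40, 6.58, 6.58 and 6.22 in livers. Tumours 1 and 3 stood above all livers, tumour 2 lay among them, and the difference was 0.31 (95% interval -0.14 to 0.76, adjusted p = 0.256). Erbb3, the receptor of neuregulins, read 10.26, 11.05, 10.93, 11.52 and 10.66 in tumours and 11.40, 11.33, 10.85 and 10.25 in livers. The groups covered almost the same range, and the difference was -0.07 (95% interval -0.74 to 0.59, adjusted p = 0.86). A second Erbb3 probe set, 1452482_at, differed by -0.26 (95% interval -0.75 to 0.24) and placed the 5 tumours in the same order. The Erbb3 interval leaves out a fall of the size seen for the main Egfr probe set. Whether the 2 genes differ in their change was not tested.

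Errfi1 was bright in both groups and lower in the tumours. Its main probe set, 1416129_at, read 12.94, 12.79, 13.11, 13.33 and 13.85 in tumours and 13.63, 14.14, 14.17 and 14.09 in livers. Tumour 5 lay above liver 1, and otherwise the tumours were below the livers. The difference was -0.80 (SE 0.21, adjusted p = 0.0193), 1.74-fold lower, and the second probe set, 1419816_s_at, which can cross-hybridise with similar genes, differed by -0.83 (SE 0.25, adjusted p = 0.0308). The call was lost without liver 2 (-0.76, adjusted p = 0.0526), liver 3 (-0.75, adjusted p = 0.055) or the 3 arrays with low Xist (-0.55, adjusted p = 0.131), and with arrays centred on housekeeping genes (-0.41, adjusted p = 0.294). It was kept in 14 of 18 alternatives.

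Among the ligand genes, Hbegf rose. It encodes heparin-binding EGF, a ligand of EGFR and ERBB4. Its main probe set, 1418350_at, read 8.08, 6.77, 7.98, 7.83 and 7.87 in tumours and 6.49, 6.75, 6.35 and 5.80 in livers. All tumours were above all livers, but tumour 2 only just, while the other 4 tumours lay close together. The difference was 1.36 (SE 0.29, 95% interval 0.71 to 2.00, adjusted p = 0.00668), or 2.56-fold, and 1.59 without tumour 2. The second probe set, 1418349_at, differed by 0.49 (SE 0.16, adjusted p = 0.0472), with tumour 2 at 6.72 inside the liver range of 6.50 to 6.90.

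Tgfa and Btc stood above all livers in some tumours only. Tgfa, which encodes TGF-alpha, read 8.59, 8.13, 9.13, 8.88 and 8.93 in tumours and 7.95, 8.05, 8.06 and 8.63 in livers with its main probe set, 1421943_at. Tumours 3, 4 and 5 stood above all livers. Tumours 1 and 2 lay above livers 1, 2 and 3 but below liver 4, which stood well above the other livers. The difference was 0.56 (95% interval 0.07 to 1.04, adjusted p = 0.0728). It passed without tumour 2 (0.71, adjusted p = 0.0139), without liver 4 (0.71, adjusted p = 0.0357), without the 3 arrays with low Xist (0.96, adjusted p = 0.00145) and with arrays centred on housekeeping genes (0.95, adjusted p = 0.00903). The other Tgfa probe sets differed by 0.08 (1450421_at) and 0.32 (1421942_s_at) without passing.

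Btc encodes betacellulin, a ligand of EGFR and ERBB4. With 1435541_at it read 7.50, 5.80, 8.20, 7.83 and 6.59 in tumours and 6.14, 6.30, 6.45 and 6.31 in livers. Tumours 1, 3, 4 and 5 were above all livers and tumour 2 was below them, giving an SD of 0.97 in tumours (n = 5) against 0.12 in livers (n = 4). The difference was 0.88 (95% interval -0.10 to 1.87, adjusted p = 0.145), and 1.23 without tumour 2 (adjusted p = 0.0144). With arrays centred on housekeeping genes it was 1.27 (adjusted p = 0.0229). The second Btc probe set, 1421161_at, read 5.45, 4.28, 5.68, 5.52 and 4.39 in tumours and 4.10, 4.31, 4.03 and 4.44 in livers. It ranked the 5 tumours in the same order as the first, tumour 3 highest and tumour 2 lowest, and differed by 0.85 (95% interval 0.15 to 1.54, adjusted p = 0.0647). Ereg, the epiregulin gene, lies beside Areg on chromosome 5 in the RefSeq annotation, and Btc follows Areg among the protein-coding genes. Ereg read 3.93 to 4.54 in tumours and 4.06 to 4.47 in livers, about the level of the TrpnX control. So no difference was measurable (-0.03, limma adjusted p = 0.866).

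**Figure D3:**
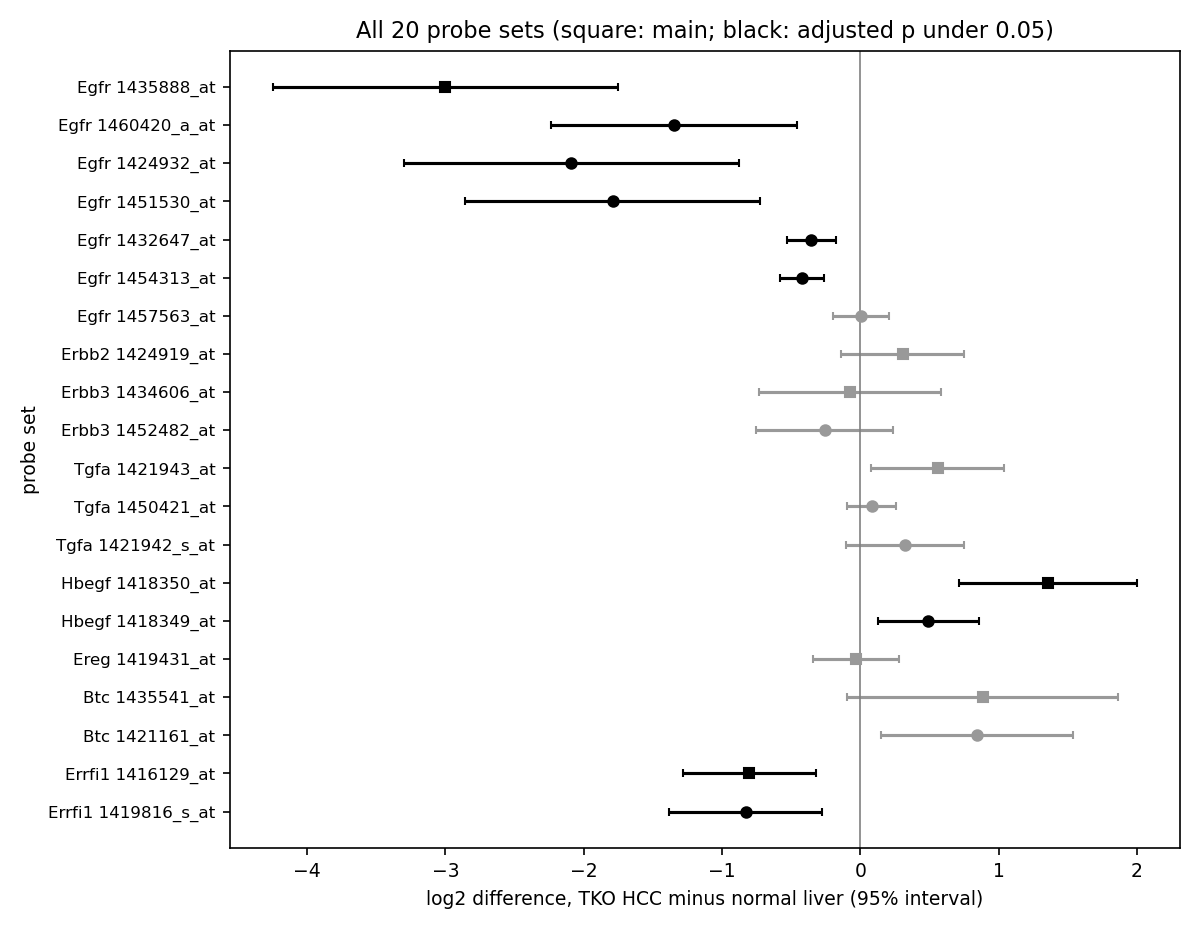
Log2 difference (horizontal axis, TKO HCC minus normal liver) with its 95% interval for each of the 20 probe sets. Squares are main probe sets and black marks have an adjusted p under 0.05 over all named probe sets. The 10 black marks are 6 of Egfr and 2 of Errfi1, all below 0, and 2 of Hbegf above 0.

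Tumour 2, which lay nearest to the livers over all genes, had the lowest value of the tumours for Erbb2, Tgfa, Hbegf, Btc and Errfi1. For Egfr it was the second highest tumour and for Errfi1, which was lower in the tumours, the farthest from the livers. Its place among the tumours was thus not that of a sample between the groups for every gene, and the counts of genes past the threshold among the 8 were 5 without it and 3 with it.

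The genes with profiles nearest to those of Egfr, Hbegf and Errfi1 were found over the 9 arrays by the root mean square difference, in log2 units, after each gene's mean was subtracted. Nearest to Egfr were Ablim3 (0.604), Asic5 (0.642) and Acsm5 (0.654), whose own differences between tumours and livers were -2.53, -2.87 and -2.50. Similar differences follow from choosing genes by closeness over these same arrays. The neighbours of Egfr were farther from it than those of Hbegf and Errfi1 were from theirs. Hbegf was most like Mmp14 (0.173), which encodes a membrane-bound matrix metalloproteinase, Stambpl1 (0.181) and Plxnd1 (0.188). Errfi1 was nearest to Fxr1 (0.175), Rnf13 (0.178) and Pdzk1 (0.195). 

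Markers of other cell types were read beside these genes, and in bulk samples fewer cells of a type and less RNA per cell cannot be told apart. Against the 33.5% of all genes that passed, the share of markers that passed was 50% for the endothelial and for the stellate list, 40% for macrophages, 37.5% for bile duct and 11.1% for lymphocytes. Of 10 macrophage markers 4 fell and 0 rose, with a mean over the list of 7.83 to 10.12 in tumours and 9.59 to 10.72 in livers. Of 10 endothelial markers 4 fell and 1 rose, with means of 6.84 to 7.94 in tumours and 8.10 to 8.60 in livers. Stellate cell and fibroblast markers held 2 that rose and 3 that fell among 10, with means of 8.53 to 9.96 in tumours and 8.83 to 9.44 in livers. Bile duct markers held 2 that rose and 1 that fell among 8, with means of 6.21 to 7.58 in tumours and 5.77 to 5.99 in livers. Those that rose were Cldn7, a tight junction gene, at 10.10 to 11.63 in tumours and 5.72 to 5.91 in livers (5.14, adjusted p = 1.17e-06), and Sox9 at 6.40 to 8.03 in tumours and 5.58 to 6.43 in livers (1.32, adjusted p = 0.0235). The duct keratin gene Krt7 fell by 0.29 (adjusted p = 0.0432), and Krt19 averaged 6.35 in tumours and 6.61 in livers (adjusted p = 0.223). Tspan8 read 11.69, 4.36, 11.60, 5.21 and 10.81 in tumours and 4.74 to 6.26 in livers (3.13, limma adjusted p = 0.163). The list means of single tumours thus depend on it too. Of 9 lymphocyte markers 1 fell. No defining marker is at 0 on this scale, Cftr being the 1 of these markers whose mean lay within the TrpnX range in both groups, and the part of these cells in the Egfr, Errfi1 and Hbegf differences was not tested.

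The rest of the pathway was described from 7 lists, which held 109 measured genes. Of these 27 rose and 16 fell, 39.4% in all against 33.5% of all genes, and 16.1% of all genes rose and 17.4% fell. Of all genes past the threshold 48% were higher in the tumours, against 86.9% with arrays centred on housekeeping genes and 25.7% with arrays centred on the 75th percentile. These scalings put the median log2 difference of all genes at 0.31 and -0.23. Of the 10 measured housekeeping genes 5 were themselves higher and 1 lower in the tumours, with a median log2 difference of 0.34. So 60% of them passed, against 33.5% of all genes, and they gave no fixed level. Centring on their median per array still raised the tumours against the livers, opposite in direction to most of the list. Of the 8 other ligands and receptors of the family none rose and none fell at an adjusted p of 0.05 (limma), and 2 had an unadjusted p under 0.05. These were Nrg1, a neuregulin that binds ERBB3, at 0.99 (adjusted p = 0.073), and Nrg3 at -0.24 (adjusted p = 0.0536). Nrg1 read 6.67, 4.70, 6.40, 5.07 and 5.91 in tumours and 4.70 to 4.89 in livers, so it was high in tumours 1, 3 and 5 and at the liver level in tumour 2. It passed without tumour 2 (1.25, adjusted p = 0.014) and without tumour 4 (1.16, adjusted p = 0.0479). Nrg3 passed without liver 2 (-0.29, adjusted p = 0.041) and with the trend and robust options of eBayes (-0.24, adjusted p = 0.0321). Nrg4, a liver-acting neuregulin of adipose tissue, ranged over 9.12 to 9.91 in tumours and over 8.43 to 10.02 in livers (0.48, adjusted p = 0.278). Without liver 3, the highest, it was 0.83 and passed (adjusted p = 0.0261), and without liver 2 it was 0.30. Egf (-0.19), Epgn (-0.14), Nrg2 (-0.0064), Tdgf1 (-0.22) and Erbb4 (0.05) did not pass. With arrays centred on housekeeping genes 2 of the 8 rose, Nrg1 (1.38) and Nrg4 (0.87). Centred on the 75th percentile 4 fell, Egf (-0.34), Epgn (-0.29), Nrg3 (-0.39) and Tdgf1 (-0.37). Erbb4 and Tdgf1 lay within the TrpnX range in both groups by their means.

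Of 14 genes for the release and presentation of ligands 4 rose and 2 fell, with a median of 0.22. That is 42.9% past the threshold, against 33.5% of all genes. Cd9, a tetraspanin that binds the membrane form of HB-EGF, read 12.34, 11.56, 13.33, 11.61 and 12.96 in tumours and 9.30, 10.45, 9.85 and 9.73 in livers. Every tumour exceeded every liver, and the difference was 2.53 (SE 0.40, adjusted p = 0.00152), or 5.76-fold. Rhbdf1 and Rhbdf2 encode the inactive rhomboids iRhom1 and iRhom2, which carry the protease ADAM17 to the cell surface. They were higher by 1.71 (SE 0.32) and 0.83 (SE 0.15), with no overlap in either. Rhbdf1 in tumour 2 was 8.12, against 9.28 to 9.94 in the other tumours and 7.44 to 7.72 in livers. Adam17 itself differed by 0.34 (adjusted p = 0.105) and Adam10, another shedding protease, by 0.12 (adjusted p = 0.626). Adam9 fell by 0.89 (SE 0.23), a call lost with arrays centred on housekeeping genes (-0.50, adjusted p = 0.111).

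In the adaptor and RAS-ERK cascade list 72.2% of genes passed, against 33.5% of all genes. The list moved both ways, with 5 of 18 up and 8 down and a median of -0.14. This split turned with the scaling, to 7 up and 1 down with arrays centred on housekeeping genes and to 1 up and 9 down with arrays centred on the 75th percentile. Braf, a RAF kinase, fell by 0.81 (SE 0.09, adjusted p = 0.000273). It was -0.42 and not past after housekeeping centring, and -0.27 and past with the mean of its probe sets. Sos1, an exchange factor for RAS, fell by 0.99 (SE 0.15), but the mean of its probe sets differed by -0.03 (adjusted p = 0.791), and it was -0.60 after housekeeping centring. Gab2, a docking protein, fell by 0.48 (SE 0.08), but did not pass after housekeeping centring (-0.09) or with the mean of its probe sets (-0.35). Crkl, an SH2 and SH3 adaptor, rose by 0.67 (SE 0.14). It did not pass with the mean of its probe sets (0.30) and was 1.06 after housekeeping centring.

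In the PI3K and AKT list 2 of 8 rose and 3 fell, with a median of -0.02. This is 62.5% past the threshold, against 33.5% of all genes. Akt1 rose by 0.73 (SE 0.15) with no overlap, by 0.40 with the mean of its probe sets and by 1.12 after housekeeping centring. Pik3r1, the main regulatory subunit of PI3K, read 8.73, 10.41, 8.86, 8.44 and 9.29 in tumours and 10.09 to 10.73 in livers, so that tumour 2 lay at the liver level. It fell by 1.24 (SE 0.36, adjusted p = 0.027), and its call was lost without tumour 1 or 3 or any of livers 2, 3 and 4 (-1.28 to -1.13), and after housekeeping centring (-0.85, adjusted p = 0.0597). The catalytic subunit gene Pik3cb fell by 0.65 (SE 0.14), but was -0.26 after housekeeping centring (adjusted p = 0.351). Pdpk1, the kinase that activates AKT, fell by 0.36 (SE 0.10). It was 0.029 after housekeeping centring and -0.095 with the mean of its probe sets (adjusted p = 0.411), and its call was also lost without tumour 3, liver 1 or liver 4 (-0.35 to -0.29) and without the 3 arrays with low Xist (-0.34).

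Of 25 genes listed as receptor and pathway inhibitors 5 rose and none fell at an adjusted p of 0.05 (limma), with a median of 0.31. At an unadjusted p under 0.05, 8 were higher and 3 lower, and with arrays centred on the 75th percentile 3 rose and 3 fell. For no list was the share of all genes at an unadjusted p under 0.05 computed. The 20% that passed is below the 33.5% of all genes that passed in either direction. All of these were higher, and 16.1% of all genes were higher. Among the 5 was Grb7 (0.68, limma adjusted p = 0.0205), which encodes an adaptor, and its place as an inhibitor was not tested. Spred2, which blocks RAF activation, read 9.12, 8.70, 9.29, 9.43 and 9.05 in tumours and 8.47, 7.93, 7.42 and 8.18 in livers, higher by 1.12 (SE 0.22), but by 0.29 with the mean of its probe sets (adjusted p = 0.0441). The phosphatase gene Ptpn2 rose by 0.71 (SE 0.13), and by 1.10 after housekeeping centring. Rnf41, a ubiquitin ligase for ERBB3, rose by 0.39 (SE 0.10), but not past the threshold with the mean of its probe sets (0.20), with arrays centred on the 75th percentile (0.24) or without the 3 arrays with low Xist (0.36). After housekeeping centring it was 0.78. In the list on endocytosis and degradation of the receptor 3 of 16 rose and 3 fell, with a median of -0.01. The share that passed, 37.5%, is near the 33.5% of all genes. Itch, a ubiquitin ligase, fell by 1.20 (SE 0.18), and to a smaller, uncalled -0.35 with the mean of its probe sets. The others that fell were Usp8 (-0.39, limma adjusted p = 0.0114) and Eps8 (-0.75, limma adjusted p = 0.0228). Their values in the alternatives are not given here. Hgs, which sorts ubiquitylated receptors on endosomes, rose by 0.37 (SE 0.11), Rab7 by 0.52 (SE 0.17) and Cd2ap by 0.64 (SE 0.21), and each lost its call under several alternatives, among them centring on the 75th percentile (0.22, 0.38 and 0.49). After housekeeping centring they were 0.76, 0.91 and 1.03. Leaving out 1 array ended the call of Hgs for livers 1, 3 and 4 (0.31 to 0.39), of Rab7 for tumours 2 and 3 and livers 1, 2 and 3 (0.48 to 0.54), and of Cd2ap for every array but tumour 2 (0.57 to 0.68).

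**Figure D4:**
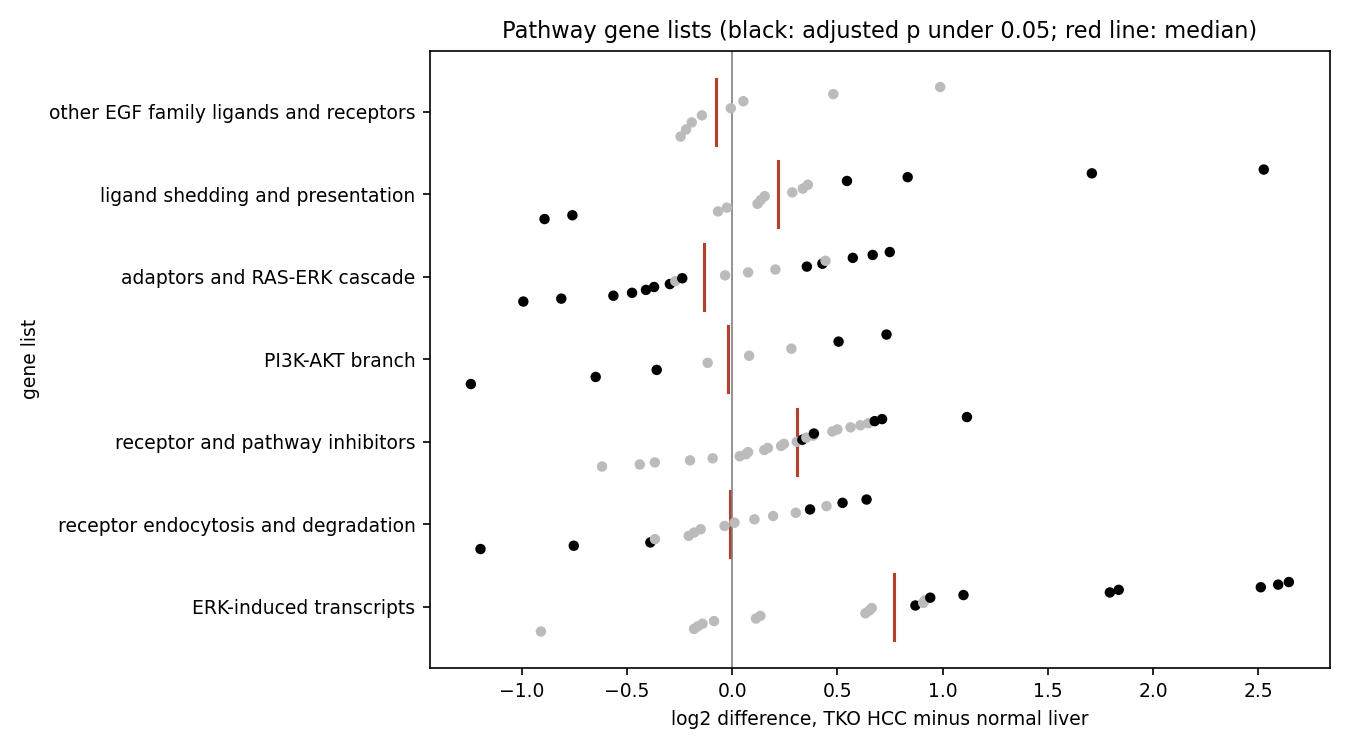
Log2 difference (horizontal axis, TKO HCC minus normal liver) of each measured gene of the 7 pathway lists (rows), black where the adjusted p was under 0.05, with the list's median as a red line. ERK-induced transcripts have the highest median, 0.77, and the medians of the other lists lie between -0.14 and 0.31.

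Transcripts known to be induced by ERK signalling were the list with the highest median, 0.77. Of 20, 8 rose and none fell at an adjusted p of 0.05 (limma). That is 40% past the threshold, against 33.5% of all genes in either direction and 16.1% that were higher. Between 7 and 13 rose in the alternatives. The number of all genes that were higher moved too, from 2926 to 4411 after housekeeping centring. At an unadjusted p under 0.05, 10 of the 20 were higher and 0 lower, again without the share of all genes at that limit. With arrays centred on the 75th percentile 2 of the 20 fell. These transcripts also answer other stimuli, stress among them. Egr1, an immediate-early transcription factor, read 11.12, 10.25, 12.28, 11.48 and 11.53 in tumours and 9.26, 8.66, 8.86 and 8.50 in livers. All tumours were higher, tumour 3 most and tumour 2 least, by 2.51 on average (SE 0.35, adjusted p = 0.00084). Atf3, a stress-responsive transcription factor, rose by 1.80 (SE 0.23) and Ier2 by 1.10 (SE 0.15), both without overlap. The others that rose were Jun, Ier3, Klf6, Myc and Plaur, at 0.87 to 2.65. Fos, the partner of Jun in AP-1, read 8.13, 7.49, 9.28, 8.46 and 8.84 in tumours and 7.71, 8.10, 7.46 and 7.83 in livers, and did not pass (0.66, adjusted p = 0.142). The feedback phosphatase gene Dusp6 and the ETS genes Etv4 and Etv5, widely used readouts of ERK activity, differed by 0.56, -0.16 and 0.13 without passing. Dusp6 was counted among the inhibitors, and these 3, Fos and the 5 that rose beside the first 3 were named after their values were seen.

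**Figure D5:**
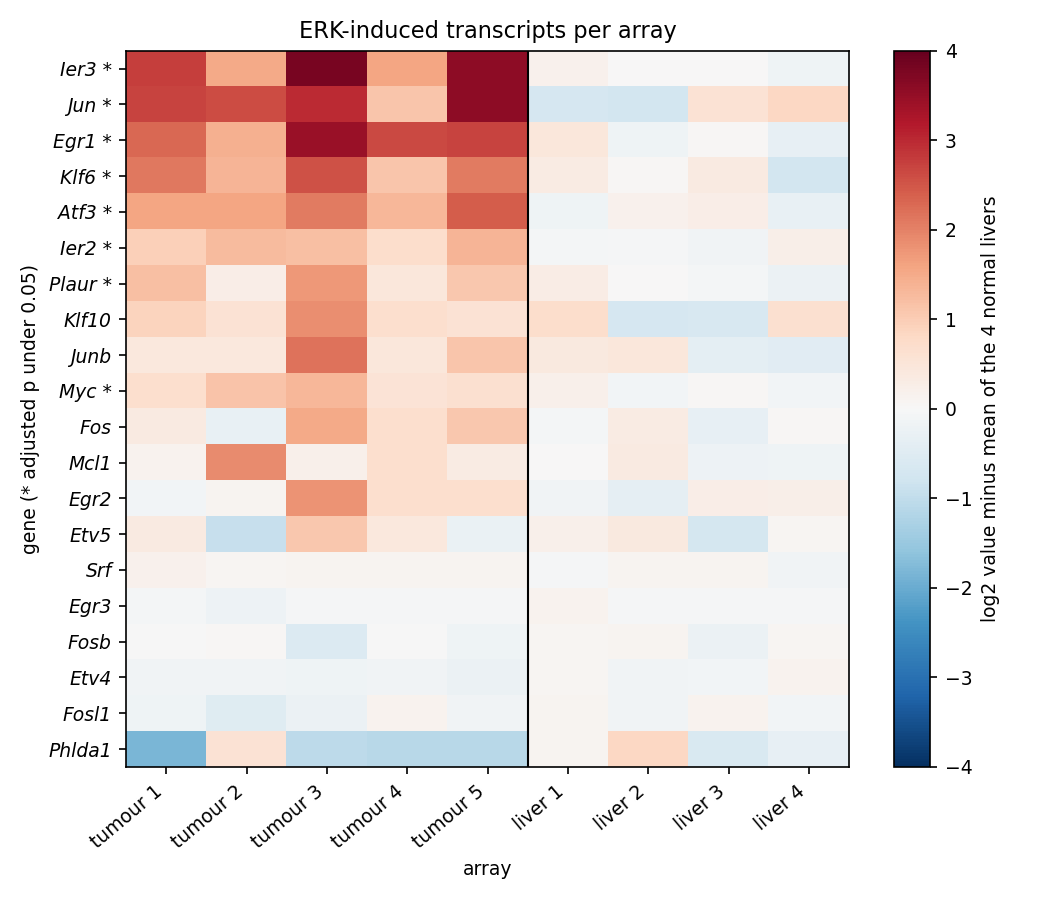
Log2 value minus the mean of the 4 normal livers (colour) for 20 ERK-induced transcripts (rows) on each array (columns), TKO HCC left of the line and normal liver right of it, with an asterisk for an adjusted p under 0.05. The 8 rows with an asterisk (Ier3, Jun, Egr1, Klf6, Atf3, Ier2, Plaur and Myc) lie above the liver mean in all 5 tumours.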

How the data were processed

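Total RNA of 5 tumours and 4 livers was measured on 1 array each. The log2 values deposited by the authors hold 45101 probe sets on 9 arrays, summarised by RMA, as the submitters' processing notes state; no label gives its version or settings. Array medians were 6.22 to 6.27. Groups were read from the titles. The platform annotation supplied gene names: 34945 probe sets named 1 gene, 932 several and 9160 none, beside 64 controls. Of the named, 34741 were found by identifier in RefSeq (GRCm38.p6) and 0 symbols changed.

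Groups were compared with limma 3.58.1 in R 4.3.3 (lmFit and eBayes, two-sided, no covariates) on 1 main probe set a gene, and on all named probe sets, with Benjamini-Hochberg adjustment. Python 3.11.15, numpy 2.4.6, pandas 2.3.3 and matplotlib 3.10.9 were also used. The test was tested on simulated data. The closest arrays differed by 0.311 (root mean square), so none was taken for a duplicate. The labels give no batch. The number of arrays limits the precision.

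The genes, lists, tests and alternatives were chosen with earlier results of these data known. Named were the 8 genes with every probe set, the targeted genes and Xist, and the other family ligands and receptors. Named per list were the 3 smallest adjusted p-values in the main direction and 1 in the other. Where as many genes rose as fell, higher was taken as the main direction. Also named were 3 nearest profiles per gene past the threshold. Further genes and markers were named after their values were seen. The labels state no pairing by replicate number. Same-numbered deviations from the group means correlated at -0.13, -0.07, 0.18 and -0.12. So few pairs cannot exclude a batch shared by replicate number.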

Additional observations from a re-analysis of the deposited data

Results flagged for a closer look

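In 6 of 40 groups of values (20 probe sets in tumours and in livers) 1 array stood apart by Dixon's test at 95%, where chance flags about 1 in 20, and probe sets of a gene share their RNA. For Errfi1, liver 1 was low with both probe sets, at 13.63 (1416129_at) and 12.65 (1419816_s_at), against 14.09 to 14.17 and 13.22 to 13.28 in the other livers. For Hbegf (1418350_at) tumour 2 was low at 6.77, and for Tgfa liver 4 was high at 8.63 (1421943_at) and liver 2 low at 5.67 (1421942_s_at). For Egfr (1457563_at) tumour 3 was low at 4.12, about the level of the TrpnX control.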

How the results depend on the processing

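Of the 8 genes, Egfr stayed past the threshold in all 18 alternatives and Hbegf in 17, and the settings that changed a call of Errfi1, Tgfa or Btc stand in the report. Leaving out 1 array at a time gave Egfr -3.46 to -2.52, Hbegf 1.17 to 1.59, Errfi1 -0.96 to -0.70, Tgfa 0.46 to 0.71, Btc 0.63 to 1.23 and Erbb2 0.19 to 0.42. With arrays centred on housekeeping genes, 4411 genes were higher and 666 lower. In that setting 5 of the 8 genes passed, Erbb2 among them (0.69, limma adjusted p = 0.0368). Most of the housekeeping genes themselves differed between the groups, so their level is no neutral standard. That scaling turned the direction of Erbb3 (0.31), Ereg (0.35), Pdpk1 (0.029), Egf (0.20), Epgn (0.24), Nrg2 (0.38), Nrg3 (0.14) and Tdgf1 (0.17). With arrays centred on the 75th percentile, 9378 genes passed, 6972 of them lower, and Erbb4 was -0.094. Averaging probe sets put Nrg2 at 0.12, and leaving out the 3 arrays with low Xist put Ereg at 0.12. The labels state no pairing by replicate number. With a replicate block 3552 genes passed, 1531 of them lower, with 22 pathway genes. That setting put Hbegf at 1.32 (limma adjusted p = 0.0571) and Nrg2 at 0.022. Leaving out 1 array at a time gave 4632 to 6361 genes past the threshold, 2 to 5 of the 8 genes and 27 to 47 of the pathway genes, and turned Erbb3 (-0.31 to 0.081), Ereg (-0.12 to 0.043) and Nrg2 (-0.041 to 0.022). The cause of these changes was not tested. Values near the TrpnX level (Ereg, Erbb4, Tdgf1, 1 Egfr probe set) set no level.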
